A study of Mus musculus with 388 samples.

Results

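The angiogenic and heparin-binding factors described here are 7 secreted proteins, chosen by gene symbol from the 25000 genes of the count table. They are Vegfa and Vegfc, ligands of the vascular endothelial growth factor receptors; Angpt1 and Angptl4, an angiopoietin and an angiopoietin-like protein; and Esm1, Ptn and Mdk, which encode the proteoglycan endocan and the heparin-binding growth factors pleiotrophin and midkine. All 7 were found in the table, and all 7 passed the filter on low values.

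Transcripts were counted in single bone marrow stromal cells of C57BL/6 mice at 2 months of age. Every cell came from the genotype KitMerCreMer; R26tdTomato, with tamoxifen given at E12.5/14.5 (days of embryonic life), so that Cre made from the Kit locus switched on a red reporter for life in the cells that expressed Kit then. The sort kept PDGFRα+ cells that lacked CD45, Ter119 and CD31, the surface markers of blood, red and endothelial cells, and the groups were Tomato+ cells with the reporter and Tomato− cells without it. The groups thus share genotype, strain, age and drug and differ in reporter colour, and a Tomato− cell can also be one in which Cre did not act.

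Endothelial cells carry the receptors for VEGF-A, VEGF-C and angiopoietin-1, and perivascular stroma that expresses the leptin receptor Lepr is a known source of angiopoietin-1 in marrow. VEGF-A drives blood vessel growth, VEGF-C chiefly lymphatic growth, and angiopoietin-1 signals through the receptor Tie2, the product of Tek. Pleiotrophin and midkine form a small family that binds heparan sulphate chains on syndecans, and pleiotrophin from marrow stroma is known to act on haematopoietic stem cells.

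Cell titles divide the data into 2 orders, which the labels do not explain, and 8 sets. After 2 shallow cells were left out, 386 cells remained. Order 1 held 137 Tomato+ cells (sets P1, P2 and P3 with 94, 5 and 38) and 60 Tomato− cells (set N2), and order 2 held 48 Tomato+ cells (P1 and P2 with 24 each) and 141 Tomato− cells (N1 and N2 with 71 and 70). Depth per kept cell spanned 18031 to 3833473 counts (median 726174 for Tomato+, 637863 for Tomato−). No animal is named, so each group is 1 sample: no test was made, and the 95% intervals below cover counting error only, on reads that are not independent molecules. Kit lay between 0 and 62.4 CPM in the Tomato+ sets and between 0.335 and 11.7 CPM in the Tomato− sets, where CPM are counts summed over cells and scaled to a common library total.

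Some libraries stood apart. Every member but Ptn was low in the 5 cells of P2 of order 1, and so was Lepr, at 84.9 CPM against 3897 CPM in P1 of the same order. Reads can also be carried between cells sequenced in 1 pool. The pool was taken to be the library code of the column name in order 1 and the title set, which holds 1 group only, in order 2. Shares of cells are therefore given as well with counts under 1% of the gene's highest count in the pool set to 0, a limit that need not be alike across orders and groups. By that measure 86.1% of the Tomato+ and 65% of the Tomato− cells of order 1 carried Lepr, and 97.9% and 90.1% of those of order 2, so the Tomato− cells of order 1 held the most cells without Lepr. In order 2, 12 Tomato− cells had at least 5 counts of Ptprc, the gene of CD45, and 0 other cells did. All 24 barcode numbers of order 1 recur in more than 1 library code, so a barcode number does not identify a cell there.

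Per kilobase of exon, and over all kept cells, the 7 levels lay far apart. Esm1 was highest at 934 CPM per kb and stood at rank 41 of 16028 genes, above Lepr at 573 and Kitl, the gene of stem cell factor, at 281 CPM per kb. Angptl4 followed at 128, Mdk at 81, Vegfc at 54.3, Angpt1 at 44.5, Ptn at 11.1 and Vegfa at 9.01 CPM per kb. Over the 4 combinations of group and order, Esm1 ran from 845 to 1060 CPM per kb and overlapped with no other member. The ranges overlapped between Angptl4 and Mdk, between Vegfc and Angpt1 and between Ptn and Vegfa, so the order inside each of those pairs is not beyond the spread.

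The upstream sequence is shown for 3 members, the one with the highest level (Esm1), the one lower in Tomato+ cells in both orders (Ptn) and the one whose orders went opposite ways by the widest margin (Vegfa). Each is the 250 bases before a RefSeq transcription start on GRCm38.p6, 5′ to 3′ on the gene's strand. Capitals mark the hypoxia response core ACGTG or GCGTG, the GC box GGGCGG and the TATA box TATAAA, each searched on both strands; no marked match overlaps another.
Esm1, chr13:113209409-113209658, plus strand: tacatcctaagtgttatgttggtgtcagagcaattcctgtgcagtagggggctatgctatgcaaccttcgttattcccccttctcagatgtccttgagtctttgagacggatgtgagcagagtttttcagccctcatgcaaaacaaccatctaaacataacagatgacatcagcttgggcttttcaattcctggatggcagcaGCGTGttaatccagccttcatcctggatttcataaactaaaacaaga
Ptn, chr6:36810180-36810429, minus strand: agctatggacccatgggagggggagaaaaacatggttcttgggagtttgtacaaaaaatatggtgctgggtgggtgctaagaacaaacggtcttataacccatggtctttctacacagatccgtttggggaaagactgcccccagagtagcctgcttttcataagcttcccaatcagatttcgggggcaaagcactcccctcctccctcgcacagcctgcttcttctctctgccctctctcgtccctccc
Vegfa, chr17:46032378-46032627, minus strand: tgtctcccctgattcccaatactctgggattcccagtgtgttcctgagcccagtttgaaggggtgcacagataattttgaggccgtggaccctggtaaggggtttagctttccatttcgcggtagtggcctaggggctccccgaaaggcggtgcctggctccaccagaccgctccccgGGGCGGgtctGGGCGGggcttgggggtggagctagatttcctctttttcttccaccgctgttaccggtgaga
The Esm1 window held 1 hypoxia response core, the Vegfa window 2 GC boxes, and the Ptn window 0 matches. A second RefSeq start of Vegfa has its window at chr17:46025164-46025413, inside the gene (46016993 to 46032369). That window is not printed and held 2 hypoxia response cores and 1 GC box. Of 32851 RefSeq promoter windows of this length, 38.6% held the hypoxia response core, 32.7% a GC box and 12.4% a TATA box. GC content was 44% for Esm1, 52% for Ptn and 59.2% for the printed Vegfa start, against a median of 52.4%. A match describes letters and shows no binding.

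Of the 7 members, 1 passed the size rule between the groups. The rule asks for more than 1.5-fold in the same direction in both orders on the scale of log2(CPM + 1), where the higher group has 20 CPM or more and counts in 20% of its cells or more. Ptn was lower in Tomato+ cells; over the 6748 genes that could pass, 4.4% were lower and 3.14% higher by this rule. The median of the 7 mean log2 ratios, Tomato+ over Tomato−, was −0.05, against 0.01 over the genes that could pass. Taken by order, 1 of 7 members (Vegfa) was over 1.5-fold higher in order 1, beside 28.8% of genes, and 1 (Ptn) lower, beside 23.3%. In order 2, 0 were over 1.5-fold higher, beside 8.7%, and 1 (Ptn) lower, beside 15%. None of the 7 went over 1.5-fold in opposite directions, beside 7.04% of genes.

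**Figure D1:**
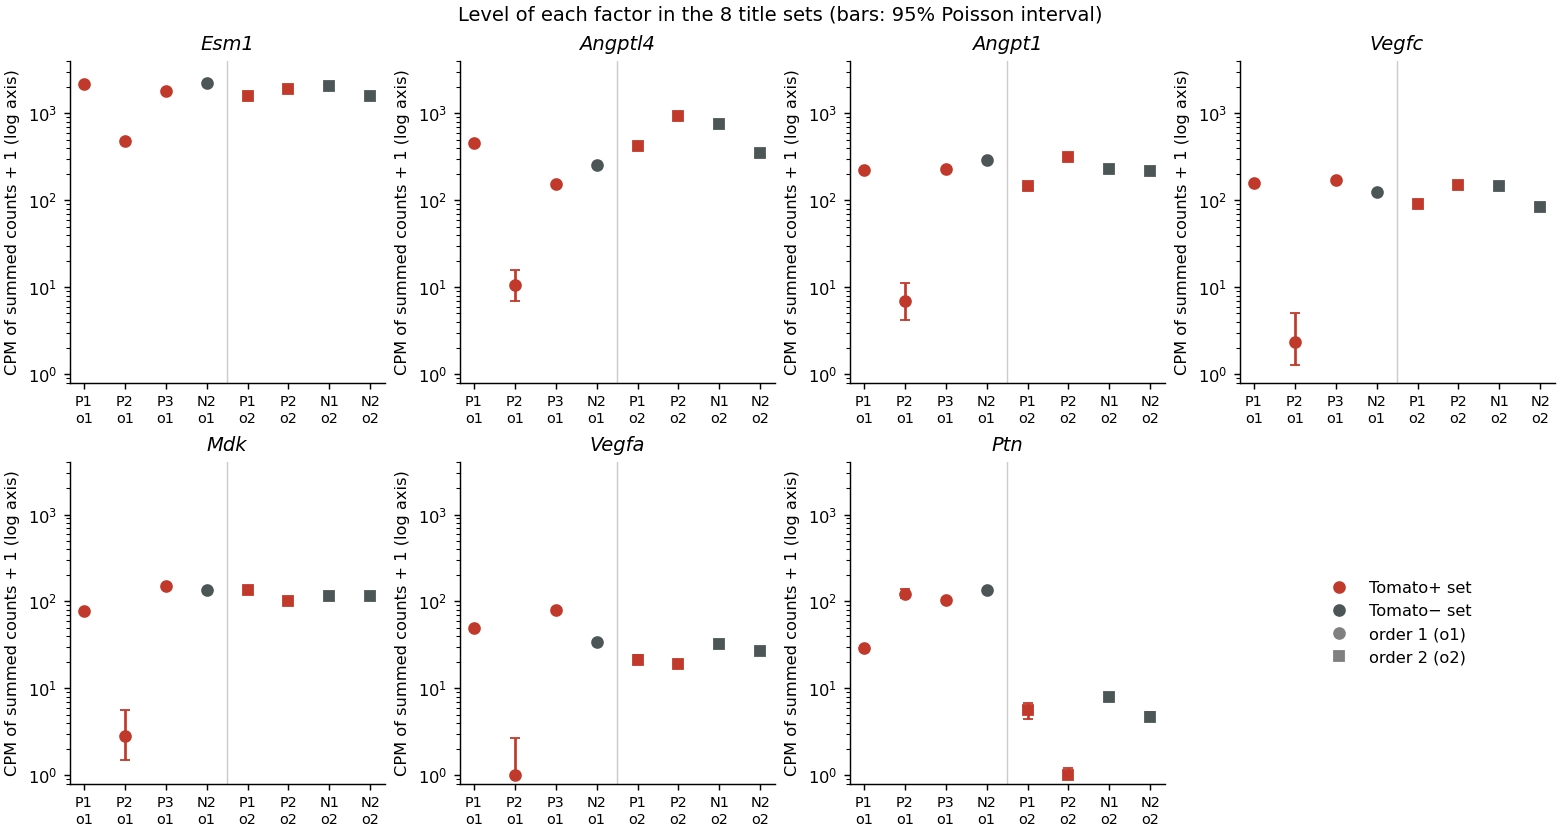
Level of each factor, as CPM + 1 of the summed counts on a log axis, in the 8 title sets; red marks Tomato+ sets, grey Tomato− sets, circles order 1 and squares order 2, and bars are 95% Poisson intervals. The 5-cell set P2 of order 1 lies below the other sets for every factor but Ptn, and Ptn lies between 0 and 6.99 CPM in order 2 against 28.1 CPM or more in order 1.

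Vegfa (chromosome 17, 46016993 to 46032369 of GRCm38, minus strand) was a low transcript. Order 1 gave 54.2 CPM for Tomato+ (52.9 to 55.6) and 32.9 CPM for Tomato− cells (30.9 to 34.9). Order 2 gave 19.2 CPM for Tomato+ (17.7 to 20.8) and 28.4 CPM for Tomato− cells (27.3 to 29.5). The log2 ratio was therefore 0.71 in order 1 (0.59 to 0.83) and −0.54 in order 2 (−0.70 to −0.37), with a mean of 0.09. The share of cells with a count went the same opposite ways: 54% of Tomato+ and 45% of Tomato− cells in order 1, but 50% and 64.5% in order 2, with intervals that overlap within each order.

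Few cells held most of the Vegfa counts of order 1. Per cell it ran from 0 through a median of 1.06 to 4837 CPM in Tomato+ and from 0 through 0 to 396 CPM in Tomato− cells, and 4 and 2 cells held 50% of the counts. In order 2 the medians were 0.651 and 5.2 CPM and the highest cells 207 and 250 CPM; 4 Tomato+ and 17 Tomato− cells held 50% of the counts. The highest cell of all, by counts, was a Tomato+ cell of P3 of order 1 with 1155 counts, 11.2% of all Vegfa counts. When only the cells with Lepr past the 1% limit were kept, a choice made after seeing the data, Vegfa stood at 46.5 (Tomato+) and 40.6 CPM (Tomato−) in order 1 and then at 19.6 and 31.3 CPM, which averages to a log2 ratio of −0.23. The sign of the Vegfa mean thus depends on the cells without Lepr, which held 21% of the Tomato+ Vegfa counts of order 1.

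Vegfc (chromosome 8, 54077606 to 54187096, plus strand) measured 157 CPM in Tomato+ (155 to 160) and 124 CPM in Tomato− cells (120 to 128) of order 1. Order 2 gave 123 CPM (119 to 127) for Tomato+ and 110 CPM (108 to 113) for Tomato− cells. Both log2 ratios were positive, 0.35 and 0.16, both under 1.5-fold, and 0.0947 on average when only the cells with Lepr were kept. Between 81% and 84.4% of cells had a count in each group and order, but the share past the 1% limit was 47.4% in Tomato+ and 21.7% in Tomato− cells of order 1, against 64.6% and 62.4% in order 2. One Tomato− cell of order 1 held 35.4% of that group's Vegfc counts there, while the largest share of any cell in order 2 was 9.79%.

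Angpt1 (chromosome 15, 42424723 to 42676977, minus strand) lay at 220 CPM in Tomato+ (217 to 222) and 292 CPM in Tomato− cells (286 to 298) of order 1, and then 243 CPM (238 to 249) and 221 CPM (218 to 224) in order 2. Its log2 ratio was −0.41 in order 1 but 0.14 in order 2, so the orders differed in direction and neither passed 1.5-fold. In order 1 cells ran from 0 through a median of 47.9 to 4556 CPM in Tomato+ and from 0 through 13.9 to 4017 CPM in Tomato− cells. The medians of order 2 were 184 and 175 CPM, with highest cells of 1180.5 and 1700 CPM. In order 1 the group with the higher sum thus had the lower median, and 5 of its 60 cells held 50% of its Angpt1 counts. The antisense gene Gm17473 overlaps Angpt1, and since no strand is stated for the counting, reads of the overlap cannot be assigned.

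Angptl4 (chromosome 17, 33773750 to 33781830, minus strand), whose product inhibits lipoprotein lipase, was the second highest member over all kept cells. In Tomato− cells of order 1 Angptl4 lay below Mdk, at 71.4 against 101 CPM per kb. Its level was 380 CPM in Tomato+ (376 to 383) and 253 CPM in Tomato− cells (247 to 258) of order 1, and 705 CPM (696 to 715) and 527 CPM (523 to 532) in order 2. Its log2 ratios were 0.58 and then 0.42, and 0.15 on average when only the cells with Lepr were kept. A Tomato− cell of order 1 held 48.2% of that group's Angptl4 counts there, and a Tomato+ cell of P2 of order 2, at 8800 CPM and without Lepr past the 1% limit, held 23.5% of its group's. Across sets the levels of the groups interleaved: 9.64, 154 and 457 CPM in the Tomato+ sets of order 1, 253 CPM in the Tomato− set, 417 and 922 CPM in the Tomato+ sets of order 2, and 746 and 353 CPM in the Tomato− sets. The mean log2 ratio was −0.20 when P1 of order 1 was left out.

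Angptl4 differed between the orders. Order 2 stood above order 1 by 0.89 on the log2 scale in Tomato+ and by 1.06 in Tomato− cells, and 11.3% of the genes tested were higher in order 2 by over 1.5-fold in both groups. Which feature of the orders goes with this was not tested.

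Esm1 (chromosome 13, 113209659 to 113218098, plus strand) had a count in 386 of 386 cells and a nearly equal level in both groups. Its level was 2079 CPM in Tomato+ (2070.2 to 2087) and 2223 CPM in Tomato− cells (2207 to 2239) of order 1, and 1772 CPM (1757 to 1787) against 1781 CPM (1772 to 1789.6) in order 2. On the log2 scale this is −0.10 (−0.11 to −0.08) and −0.0075 (−0.03 to 0.01). In order 1 cells ran from 4.95 through a median of 1761.5 to 8762 CPM in Tomato+, and from 20.2 through 1249 to 20346.5 CPM in Tomato− cells. In order 2 they ran from 18.8 through 1593 to 4836 CPM and from 5.5 through 1601 to 8646 CPM.

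A count in every cell is not the same as a level past the 1% limit. Past that limit, 86.1% of the Tomato+ and 61.7% of the Tomato− cells of order 1 carried Esm1, and 97.9% and 89.4% of those of order 2. Among the 331 cells with Lepr past that limit, Esm1 passed in 95.2%, with a median of 1761.5 CPM; among the 55 cells without, it passed in 23.6%, with a median of 88.8 CPM and a lower depth (medians of 329398 against 702491 counts). Restricted to cells with Lepr, Esm1 passed in 94.9% of Tomato+ cells of order 1 (89.3 to 98.1), in 79.5% of its Tomato− cells (63.5 to 90.7), and in 100% and 98.4% in order 2. The Tomato− cells of order 1 stayed lowest within the Lepr cells too, although the intervals of that order overlap.

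Gzmk lies antisense to Esm1 and had 362 counts in 8 cells, 1.35 CPM. Endocan is best known from endothelium, so the counts were set against 14 endothelial markers. The 15 cells with at least 5 counts of 3 or more of these markers were 3.89% of the cells and held 4.78% of all counts and 2.98% of the Esm1 counts, with Esm1 at 1221 CPM in them and 1995 CPM in the other cells. Of these 15, 3 and 2 were Tomato+ cells of orders 1 and 2, and 10 were Tomato− cells of order 2. In the Tomato− cells of order 2 Kdr stood at 0.215 CPM, and Eng made up 113 of the 163 CPM over the markers. Eng had a count in 69.7% of Tomato− cells, so the 15 cells need not all be endothelial. The summed endothelial level per cell ran over all cells from 0 to 17374.5 CPM in Tomato+ and to 3187 CPM in Tomato− cells of order 1 and to 18140 and 2157 CPM in order 2, with Tie1 at 0 in Tomato− cells of order 1 and Tek at 0 in those of order 2. The same 15 cells held 9.03% of the Angptl4 counts and 0.773% of the Ptn counts, and between 2.88% and 4.44% of the counts of Mdk, Angpt1, Vegfc and Vegfa.

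**Figure D2:**
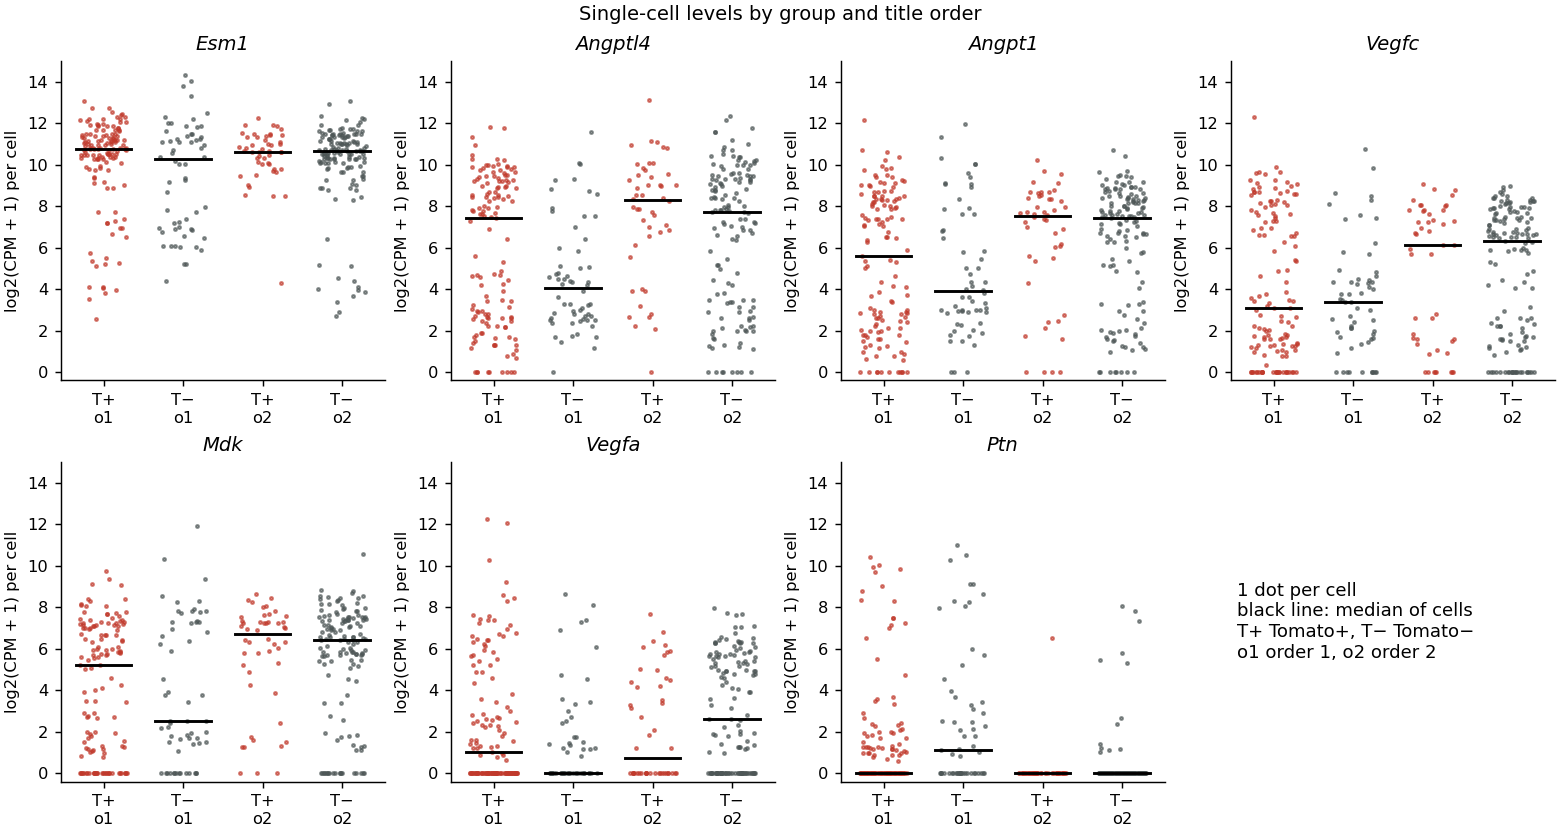
Level of each factor per cell as log2(CPM + 1), 1 dot for each of the 386 cells, by group (red Tomato+, T+; grey Tomato−, T−) and title order (o1, o2), with a black line at the median of cells. Esm1 medians lie between 1249 and 1761.5 CPM in all 4 columns, and Ptn medians lie at or near 0.

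Ptn (chromosome 6, 36714929 to 36810220, minus strand) was the member with the largest difference between the groups. Order 1 gave 47 CPM for Tomato+ (45.8 to 48.3) and 135 CPM for Tomato− cells (131 to 139). Order 2 gave 1.96 CPM (1.5 to 2.52) for Tomato+ and 5.18 CPM (4.72 to 5.66) for Tomato− cells, under the 20 CPM of the filter, which Ptn passed on the cells of both orders together. The log2 ratios were −1.50 (−1.58 to −1.42) and −1.06 (−1.41 to −0.70), with a mean of −1.28. In order 1, 45.3% of the Tomato+ (36.7 to 54) and 56.7% of the Tomato− cells had a count (43.2 to 69.4), while in order 2 the shares were 2.08% (0.0527 to 11.1) and 9.22% (5 to 15.2). Tomato+ cells were lower by sum and by share within each order, and the intervals of the shares overlapped.

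Ptn counts came from few cells. Per cell it ran from 0 through 0 to 1384 CPM in Tomato+ and from 0 through 1.19 to 2032.5 CPM in Tomato− cells of order 1, where 3 cells of each group held 50% of its counts. In order 2 the Tomato+ counts were 61, all in 1 cell, and the Tomato− counts were 481 in 13 cells. By set the Tomato+ levels of order 1 were 28.1 CPM in P1, 122 CPM in P2 and 104 CPM in P3, so that P1 was furthest from the 135 CPM of the Tomato− set. In order 2 they were 4.57 CPM in P1 and 0 CPM in P2 (0 to 0.208), against 6.99 and 3.73 CPM in the Tomato− sets. The mean log2 ratio was −0.71 without P1 of order 1, −0.82 without P2 of order 2, −2.06 without P1 of order 2 and −0.07 when the orders were pooled before the sums were compared. Ptn missed the size rule in that pooled sum, without P1 of order 1 or P2 of order 2, with a pseudocount of 5 CPM, under the 1% limit (−1.28) and in the batches that hold both groups (−1.64).

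The Ptn difference between the orders was far wider than that between the groups. The log2 ratio of order 2 over order 1 was −4.02 in Tomato+ and −4.46 in Tomato− cells; 15% of the genes tested were lower in order 2 by over 1.5-fold in both groups. With the orders pooled, Ptn also lay more outside the Lepr cells than the other members did. The 55 cells without Lepr held 9.54% of all counts and 29.4% of the Ptn counts. Their share was 12.6% for Vegfa and 4.87% or less for the others. Ptn was at 117 CPM there and 29.7 CPM in the Lepr cells. Of the 55, 19 Tomato+ and 21 Tomato− cells were of order 1, where Ptn was higher. Without Lepr, Ptn was 229 CPM in Tomato+ and 130 CPM in Tomato− cells of order 1. In order 2 it was 14.4 CPM in 14 Tomato− cells and 0 in the 1 Tomato+ cell without Lepr. In the Lepr cells alone Ptn was 31.5 CPM for Tomato+ and 136 CPM for Tomato− cells of order 1 and then 2 and 4.11 CPM, with a mean ratio of −1.42 on the log2 scale. By sum, the Tomato− cells of order 1 thus had nearly the same Ptn level with and without Lepr, but their medians were 3.17 and 0 CPM. Among the Lepr cells, 16.1% of the Tomato+ (9.98 to 24) and 38.5% of the Tomato− cells (23.4 to 55.4) of order 1 passed the 1% limit for Ptn. Among the cells without Lepr, 26.3% of the 19 Tomato+ and 19% of the 21 Tomato− cells of order 1 passed it.

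Mdk (chromosome 2, 91929805 to 91932297, minus strand) was broadly met in both groups. It measured 92 CPM in Tomato+ (90.2 to 93.8) and 134 CPM in Tomato− cells (130 to 138) of order 1, and then 114 CPM (111 to 118) beside 114 CPM (112 to 116). Its log2 ratio was −0.54 in order 1 but 0.01 in order 2, so the lower Tomato+ level of order 1 was not met in order 2. In order 1 the medians of cells ran the other way, 36.4 CPM in Tomato+ and 4.74 CPM in Tomato− cells, and 1 Tomato− cell at 3901 CPM held 23.5% of its group's Mdk counts. The medians of order 2 were 103 and 86.3 CPM. Among Lepr cells Mdk passed the 1% limit in 66.1% of Tomato+ and 64.1% of Tomato− cells of order 1 and in 83% and 85% in order 2.

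**Figure D3:**
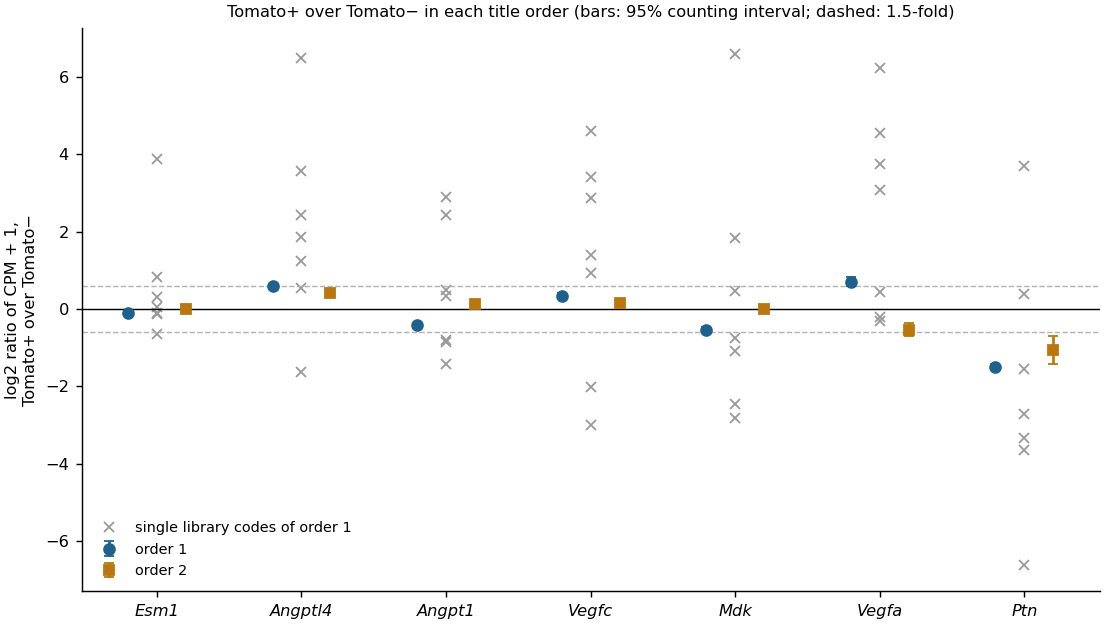
Log2 ratio of CPM + 1, Tomato+ over Tomato−, for each factor in order 1 (blue circles) and order 2 (orange squares) with 95% counting intervals, and in the 7 library codes of order 1 that hold cells of both groups (grey crosses); dashed lines mark 1.5-fold. Ptn alone lies below the lower dashed line in both orders, and the single library codes spread far more widely than the counting intervals.

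Inside order 1, column names give 12 library codes, of which 7 hold Tomato+ and Tomato− cells together, with 11 or 12 Tomato+ and 2 to 12 Tomato− cells in each. Angptl4 was higher in Tomato+ cells in 6 of 7 codes, with a median log2 ratio of 1.86 and a range of −1.63 to 6.50. Ptn was lower in 5 of 7, with a median of −2.72 and a range of −6.63 to 3.69. Esm1 was higher in 4 of 7, with a median of 0.04 and a range of −0.65 to 3.87. Vegfa and Vegfc were higher in 5 of 7 each, Angpt1 in 4 and Mdk in 3. For every member the range over codes was wider than the difference between the groups.

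The 12 Tomato− cells of order 2 with Ptprc counts give a view of the members in cells that carry a blood cell gene. Their choice was made after seeing the data. Esm1 had a median of 15.6 CPM in them and 1678 CPM in the 129 other Tomato− cells of that order, and it passed the 1% limit in 1 of the 12. Angptl4 had medians of 3.84 and 249.7 CPM, Angpt1 of 3.04 and 187 CPM, Vegfc of 1.07 and 90.1 CPM, Mdk of 0 and 94.6 CPM and Vegfa of 0 and 10.8 CPM. Lepr had medians of 39.4 and 4759 CPM, although the Ptprc cells were the deeper ones, with a median of 853826 against 637863 counts. Lepr and Cxcl12 each passed the 1% limit in 2 of the 12, with highest cells of 7283 and 57352 CPM, so some of the 12 may be stromal or mixed. Before the 1% limit, Esm1 was counted in 100% and Angptl4 in 91.7% of the Ptprc cells. A share of cells with any count thus need not measure expression for the members that are abundant elsewhere in a pool, and carry-over was not tested.

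**Figure D4:**
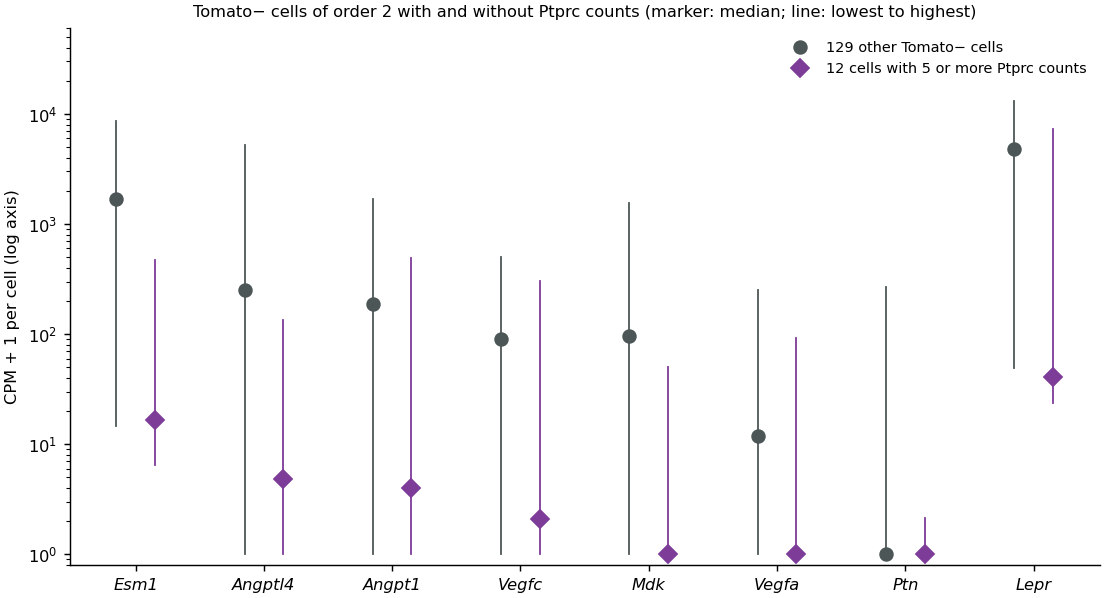
Level per cell, as CPM + 1 on a log axis, of the 7 factors and Lepr in 12 Tomato− cells of order 2 with at least 5 Ptprc counts (purple diamonds) and in the 129 other Tomato− cells of that order (grey circles); markers are medians and lines run from the lowest to the highest cell. Medians of the Ptprc cells are below those of the other cells for every factor except Ptn, whose medians are both 0.

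Counts of several factors were found together in most cells. With at least 5 counts required, the median number of members per cell was 4 in Tomato+ and 3 in Tomato− cells of order 1 and 5 in both groups of order 2. That cut need not remove reads carried between cells. In Tomato− cells of order 1, 100% had 5 counts of Esm1 while 61.7% passed the 1% limit. Across cells, each member's rank went little with the others': Spearman's rho between members lay between −0.11 and 0.28 over the 197 cells of order 1 and the 189 of order 2, as a description of cells that share libraries and depth. Esm1 and Mdk reached 0.16 and 0.28, and Vegfc and Angpt1 0.25 and 0.16.

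Among 5197 genes compared, Esm1 was most like Kitl (rho of 0.39 in order 1 and 0.40 in order 2), the chemokine gene Cxcl12 (0.40 and 0.39) and Igfbp4, an insulin-like growth factor binding protein (0.33 and 0.38). Mdk was most like Rcn3 (0.34 and 0.34), the small proteoglycan gene Bgn (0.34 and 0.33) and Cd302 (0.33 and 0.32). Angptl4 reached 0.3 in both orders with 1 gene, Sqstm1 (0.32 and 0.34), which encodes an autophagy adaptor. Vegfa, Vegfc and Angpt1 reached it with 0 genes, and Ptn was not ranked because only 7.41% of cells of order 2 had a count. With the summed level of 15 Lepr+ stroma markers, rho was 0.42 and 0.40 for Esm1, 0.28 and 0.36 for Mdk and 0.29 and 0.31 for Angpt1. It was 0.32 and 0.24 for Vegfc, 0.19 and 0.09 for Vegfa, 0.35 and −0.01 for Angptl4 and −0.13 and −0.04 for Ptn. Cxcl12 was the largest part of this sum, at 42135 of 76276 CPM in Tomato+ and 22490 of 52394 CPM in Tomato− cells of order 1. The Esm1 value is thus not separate from its rho with Cxcl12, and cells without Lepr were not set aside.

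The related ligands passed the size rule once. Of 10 other VEGF, angiopoietin and angiopoietin-like genes with a count, 5 could pass and 1 did: Angptl1 was lower in Tomato+ cells, at 122 CPM where Tomato− cells had 300.5 CPM in order 1, and at 92.1 CPM beside 166 CPM in order 2 (log2 ratios of −1.29 and −0.84). The list's median mean ratio was −0.14, beside −0.01 over all genes with a count. Angpt2, the context-dependent partner of Angpt1 at Tie2, measured 68.8 CPM in Tomato+ beside 170 CPM in Tomato− cells of order 1, and 95.5 beside 46.3 CPM in order 2, so its orders went opposite ways. Of 6 other heparin-binding growth factors, 0 passed either way and the median was −0.44; the highest, Fgf7, gave 373 (Tomato+) and 433 CPM (Tomato−) in order 1, then 224 and 199 CPM.

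The receptors of the VEGF and angiopoietin ligands differed in where their counts lay. Of 7 measured, 2 could pass and 0 did. Those were the neuropilins, coreceptors that also bind heparin-binding VEGF forms: Nrp1 measured 639 (Tomato+) and 644 CPM (Tomato−) in order 1, then 647 and 605 CPM; Nrp2 measured 257 and 157 CPM, then 175 and 156 CPM. Kdr, Tek, Flt4 and Tie1 are themselves among the 14 endothelial markers that chose the 15 cells. Those cells held 98.9%, 99.3% and 97.4% of the counts of Kdr, Tek and Flt4, which the choice partly fixed. Flt1, a VEGF receptor that is not among the markers, had 83.7% of its counts in them. Of the 15 cells, 10 were Tomato− cells of order 2, a group with Kdr at 0.215 CPM and Tek at 0. The 15 cells are therefore not shown to be 1 cell type. The median ratio over the 7 receptors was 2.91. Summed endothelial markers, which include 4 of these receptors, came to 470.5 CPM in Tomato+ and 126 CPM in Tomato− cells of order 1, then 516 and 163 CPM. Their medians per cell were 19.3 and 8.55 CPM, then 128 and 124 CPM, so a few cells carried the sums; their part in the receptor ratios was not tested.

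Of 10 receptors and partners of pleiotrophin and midkine, 6 could pass and 0 did, with a median of 0.34. The syndecan gene Sdc4 measured 233 (Tomato+) and 315 CPM (Tomato−) in order 1, then 1103 and 1315 CPM; Sdc1 measured 476 and 256 CPM, then 593 and 467 CPM. Ptprz1, a phosphatase receptor of pleiotrophin, stayed between 3.63 and 19.1 CPM, and Alk had 0.0304 CPM or less. Of 16 genes of heparan sulphate synthesis and editing, 8 could pass and 0 did, with a median of 0.21; Sulf1, an extracellular sulphatase that trims these chains, was the highest of them, with 313 and 251 CPM, then 250.1 and 283 CPM.

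Lists of known regulators of Vegfa and Angptl4, and of other targets of those regulators, held no call. Of 20 genes of the hypoxia-inducible factor pathway 14 could pass and 0 did, with a median of 0.07; Epas1, which encodes HIF-2α, measured 1154 (Tomato+) and 1039 CPM (Tomato−) in order 1, then 1274 and 1322 CPM. Of 15 PPAR genes and targets 10 could pass and 0 did, with a median of 0.02; Lpl, the lipase that the product of Angptl4 inhibits, measured 1331 and 1729 CPM, then 2428 and 1969 CPM. Fabp4 showed ratios of 0.35 and 6.29 while 81.6% of its counts lay in the cells with endothelial markers, and its part was not tested.

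Among marker lists of other cell types, 3 of the 3 endothelial genes that could pass (Emcn, Eng and Ramp2) were higher in Tomato+ cells. Lower were 2 of 7 myeloid (Fcer1g and Cd53), 2 of 4 pericyte (Rgs5 and Abcc9) and 2 of 3 Sca1+ fibroblast genes (Ly6a and Gsn). Over all genes that could pass, 3.14% were higher and 4.4% lower. Kcnj8 of the pericyte list (log2 ratios of 3.39 and 3.92) and Csf1r of the myeloid list (0.32 and 0.75) could not pass and were higher in both orders. The cells with endothelial markers held 95% of the Kcnj8 counts, and 1 cell held 70.8% of them. Csf1r lay between 0.0304 and 3.41 CPM. Summed pericyte markers were 296 CPM in Tomato+ and 1312 CPM in Tomato− cells of order 1 and 127 and 179.5 CPM in order 2, and Sca1+ fibroblast markers were 2647 and 4159 CPM and then 870.1 and 1841 CPM. The medians per cell ran the other way in order 1, at 44.3 CPM for Tomato+ and 23.8 CPM for Tomato− cells with the pericyte list and 894 and 304 CPM with the fibroblast list. In order 2 they were 56.2 and 112.5 CPM, then 661 and 939 CPM. One cell held 78.8% of the Rgs5 counts, and the highest Tomato− cell of order 1 reached 59878 CPM over the pericyte list. Summed myeloid markers were 48.2 CPM for Tomato+ beside 88.7 CPM for Tomato− cells of order 1, and 89.4 beside 15439.9 CPM in order 2, where 22.9% and 76.6% of cells had 5 counts of 3 or more of them. In order 1 Ptprc, Mpo and Itgam were at 0 in both groups. The sums of all 3 lists were lower in Tomato+ cells in both orders, as for Ptn, and their part in the Ptn ratio was not tested. The 120 cells with 3 or more myeloid markers held 4.69% of the Ptn counts, beside 30.4% of all counts. Of these cells, 108 were Tomato− and 11 Tomato+ cells of order 2, where Ptn was low in both groups (5.18 and 1.96 CPM). Their low Ptn share thus cannot be told apart from the title order. The 32 cells with 3 or more pericyte markers held 6.09% of the Ptn counts and 14.5% of the Angptl4 counts, beside 7.8% of all counts.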

How the data were processed

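Polyadenylated RNA of single sorted cells was turned into cDNA and amplified before libraries were made, per the labels' protocols, with no mention of molecular identifiers or of strand. The authors deposited expected counts (estimated read numbers, some fractional) for 25000 genes in 388 cells; 4.91% of the values above 0 were not whole (38 of Angpt1, 0 of the other members), and all were rounded. GRCm38, StringTie 1.3.3b, HTSeq 0.6.0 and HISAT appear in the submitters' processing notes, with roles not given in the sources used here.

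Columns were matched to group and set by name, with 0 unmatched and 0 duplicated. A cell was kept from 1000 genes and 10000 counts upwards; 2 held 7927 and 4014 counts and were left out. No doublet caller was run. Within each title order, each group's cells were added up and the sum was scaled to CPM; a gene's value is log2 of the ratio of CPM + 1, averaged over the orders, which understates changes of low genes. Groups are 1 sample each, so no test was run; sums carry exact Poisson and shares exact Clopper-Pearson 95% intervals. These intervals hold no spread between cells, libraries or animals, and the ratios varied far more between library codes than the intervals show. The alternatives were another pseudocount, scaling, filters, sums over both orders, per-cell means, the 1% pool limit, thinning to 150000 counts, library codes and leaving out cells or sets. The call rule was tested on simulated data with counting error only and no added spread between cells or libraries. Changes were set there only in genes of higher summed level than Ptn, so the simulation does not cover the Ptn call. Named genes were the members, up to 3 most alike by rho of at least 0.3, and per list those called or the 2 of highest summed level. Angpt2, Kdr, Tek, Flt4, Flt1, Tie1, Ptprz1, Alk, Fabp4, Kcnj8 and Csf1r were added after their values were seen. Members, lists and rules were chosen with earlier results of these data known. Gene positions are from GENCODE M21 and sequences from RefSeq (GRCm38.p6), where 4 of 7 members matched. Python 3.11.15, NumPy 2.4.6, pandas 2.3.3, SciPy 1.17.1 and matplotlib 3.10.9 were used.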

Additional observations from a re-analysis of the deposited data

Results flagged for a closer look

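Vegfa went opposite ways in the title orders, with a log2 ratio of Tomato+ over Tomato− of 0.71 in order 1 and −0.54 in order 2. Angpt1 did so too, at −0.41 and 0.14. In both cases the difference between the orders was not tested.

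A Tomato+ cell of P3 of order 1 that was left out for its 7927 counts held 39 Esm1 counts. The other cell left out, with 4014 counts, held 1.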

How the results depend on the processing

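Ptn was below 0 in all 17 alternatives and Vegfc above 0 in all 17; Mdk, Angpt1, Angptl4 and Esm1 kept their direction in 15 each and Vegfa in 13. Summing all cells over both orders gave 0.64 for Vegfa, 0.39 for Vegfc, −0.016 for Angptl4, 0.085 for Esm1 and −0.0696 for Ptn. The mean of per-cell CPM gave 0.82 for Vegfa, 0.54 for Vegfc, −0.0278 for Angpt1, 0.83 for Angptl4, −0.13 for Esm1 and −0.50 for Mdk. Median-of-ratios size factors moved the median of all genes by −0.16 in order 1 and 0.07 in order 2 and gave −0.19 for Angpt1, 0.45 for Angptl4 and −0.10 for Esm1. A pseudocount of 5 CPM gave −0.99 for Ptn. Without cells with Ptprc or Pecam1 counts, Angptl4 was at 0.19, Esm1 at −0.16 and Ptn at −2.15. Without the top cell of each gene, Vegfc was at 0.46, Angptl4 at 0.76, Esm1 at −0.0164, Ptn at −1.90 and Mdk at −0.17. Library codes and sets holding both groups gave −0.14 for Vegfa, −0.0123 for Esm1 and −1.64 for Ptn. Among cells with Lepr, the added alternative, the values were −0.23 for Vegfa, 0.0947 for Vegfc, −0.19 for Angpt1, 0.15 for Angptl4, −0.13 for Esm1 and −0.43 for Mdk. Leaving out 1 set gave −0.54 to 0.30 for Vegfa, 0.0215 to 0.45 for Vegfc, −0.50 to 0.14 for Angpt1, −0.20 to 0.79 for Angptl4, −0.19 to 0.0387 for Esm1, −2.06 to −0.71 for Ptn and −0.41 to 0.0264 for Mdk. The direction changed without P1 of order 1 for Angptl4 and Mdk, without N1 of order 2 for Esm1, without P1 of order 2 for Angpt1 (0.0548), without P3 of order 1 for Vegfa (−0.019), and, where order 2 alone remains, without N2 of order 1 for Vegfa, Angpt1 and Mdk. The cause was not tested in any of these.

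Members called numbered 1, and 0 with the pseudocount of 5 CPM, the 1% pool limit, or batches holding both groups; leaving out 1 set gave 0 to 1, with 0 without P1 of order 1 or P2 of order 2. With all cells summed the 1 called was Vegfa in place of Ptn. Genes called in either direction numbered 509, then 2052 with all cells summed, 312 with the pool limit, 211 in batches and 1679 without a filter. Of 28 shares of cells, 22 moved beyond their interval at 5 counts, 22 under the pool limit and 18 after thinning. Without N2 of order 1, order 2 remains alone and the call rule cannot be used. No paired analysis was possible because each group is 1 sample, so a block could enter no test; only values within library codes and sets holding both groups were compared. At these depths Vegfa and Ptn had medians per cell of 5.2 CPM or less in every group and order.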
